A study of Mus musculus with 11 samples.

Results

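General capillary endothelial cells (gCap cells) of the mouse lung were described in single-cell RNA profiles from 4 genotypes. They were chosen by their counts of unique molecular identifiers (UMIs) for a few genes, among barcodes that held between 1000 and 30000 UMIs with no more than 14% mitochondrial. A member held 2 or more UMIs of Gpihbp1 and at least 1 of Cldn5 and Cdh5 together. It held at most 1 UMI of Car4 and Ednrb together, at most 1 of Gja5, Gja4 and Bmx together, and none of Slc6a2 or Ptprc. The rule found 2416 members among 69267 passing barcodes, or 3.49%, and they were 32.8% of the 7355 barcodes that passed as endothelial. The values of these genes chose the cells, so they are given as description and carry no test.

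Droplet-based 3′ libraries of dissociated whole lung were made from 11 samples. The wild type group (+/+) had 1 library, the p21 heterozygotes (+/-, p21Het) had 3, the p21 mTert group (+/mTert) had 5 and the p21 mTertCD group (+/mTertCD) had 2. The gene p21 (symbol Cdkn1a) encodes a cyclin-dependent kinase inhibitor, and mTert is mouse telomerase reverse transcriptase (symbol Tert), which the series title describes as induced in p21-positive cells. The labels do not spell out the letters CD. Every group but the wild type thus carried 1 altered p21 allele, and the altered p21 locus is present in the heterozygous controls too. Ages were labelled 18 months, except 19 for p21Het_1 and 20 for p21mTert_1, whose titles also say 18. The labels do not say whether libraries of a group came from separate animals, so p-values measure the spread between these libraries.

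The alveolar capillary bed is built from a pair of endothelial cell types. Aerocytes (aCap cells, marked by Car4 and Ednrb) are large, thin cells specialised for gas exchange, while gCap cells carry Gpihbp1 and Kit, proliferate to renew the bed after injury and serve as progenitors of aerocytes. GPIHBP1 anchors lipoprotein lipase on the capillary wall, and gCap cells are also known to express MHC class II genes. Loss of capillaries accompanies emphysema, the condition named in the series title.

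Libraries held 42038434 to 85988955 UMIs, of which gCap cells contributed 452419 to 1498492. By replicate number, the p21Het libraries had 208, 409 and 111 members, the p21mTert libraries 175, 351, 279, 315 and 138, the p21mTertCD libraries 121 and 160, and the wild type library 149. A member held a median of 2489 to 2740 UMIs in the 3 libraries deposited earlier (WT_1, p21Het_1 and p21mTert_1) and 3072 to 4018 in the 8 deposited later, with 4.46% to 5.47% and 3.71% to 4.21% mitochondrial UMIs. Across all libraries 2 barcodes occurred in 2 libraries. One library stood apart in its other cells: p21mTertCD_1 held 171 B cells (2 or more Cd79a UMIs and none of Cldn5 or Cdh5), against 935 or more in each of the others.

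Most members carried little RNA of other lineages, and a small group did not. The median member had 0.436% to 1.13% of its UMIs in markers of other lineages, by library. More than 5% was reached by 53 members (2.19%), and 34 members (1.41%, in 10 of 11 libraries) held 2 or more UMIs of the lymphatic genes Prox1, Mmrn1 and Reln. These 34 cells held 4803 of the 4826 UMIs of Ccl21a, a lymphatic chemokine, counted in gCap cells. In p21Het_1 a single member held 1454 of the 1481 Igha UMIs. Surfactant, club cell and globin RNA varied between libraries: Sftpc lay between 384 and 15260 CPM (counts per 1000000 UMIs), Scgb1a1 between 1221 and 12819, and Hbb-bs between 67.4 and 9733. Sftpc UMIs were found in 89.9% of B cells on average, and in 88.4% of gCap cells. The contrasts of genotypes were also fitted without each of these sets of members.

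Kit, Sema3c and Npr3, gCap markers that were not part of the rule, were high in the members. Kit, the stem cell factor receptor, averaged 558 CPM in gCap cells over the 11 libraries, with a range of 487 to 651, against 110 in aCap, 305 in arterial and 41.9 in venous cells. Sema3c, a secreted semaphorin, averaged 1849 CPM against 533, 1187 and 774 in the same order. Npr3, the natriuretic peptide clearance receptor, averaged 532 CPM against 136, 309 and 226. Each of these 3 genes was higher in gCap cells than in every one of those gates in 11 of 11 libraries. Among the other listed gCap markers outside the rule, Ptprb averaged 2909 CPM against 3173 in arterial cells. Plvap averaged 983 CPM against 1069 in venous cells, and the remaining ones averaged highest in gCap cells among these gates. Cldn5, the tight junction claudin, was part of the rule and of every endothelial gate, so its level is given as description: it averaged 3661 CPM in gCap and 5113 in aCap cells. Kit UMIs were found in 72.3% of gCap cells (68.0% to 76.9% by library) and in 0.753% of B cells, which should lack it and had deeper profiles (median 3468 to 9130 UMIs against 2489 to 4018).

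**Figure D1:**
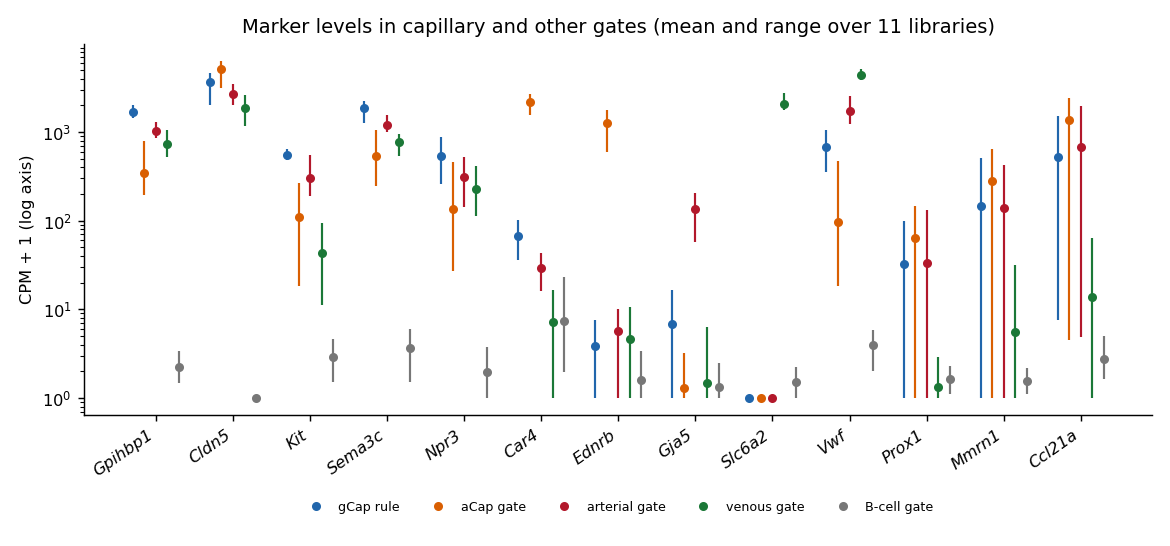
Levels of 13 marker genes in gCap, aCap, arterial, venous and B cells, as CPM + 1 on a logarithmic axis, with points for the mean and lines for the range over 11 libraries. Genes used to define the gates, Cldn5 and Gpihbp1 among them, have levels partly fixed by that use (B cells had to lack Cldn5). Kit averaged 558 CPM in gCap cells, above the other gates, while Cldn5 was highest in aCap cells and Vwf in venous cells.

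Mean Kit rose by steps across the cut at 2 Gpihbp1 UMIs. Cells that met all other conditions numbered 1096 with no Gpihbp1 UMI, 497 with 1, 428 with 2 and 382 with 3. Mean Kit was at 66.0, 313, 462 and 515 CPM in these classes, and Sema3c at 260, 1358, 2016 and 1805. The class just outside the cut, with 1 UMI, thus had an intermediate mean of Kit. Class means cannot tell a gradient from a mixture of cells.

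Other genes also differed in level between gCap and aCap cells. Among genes with a mean of 50 CPM or more in gCap cells, those of highest ratio over aCap cells, each higher in 11 of 11 libraries, were Cxcl12 (a chemokine, 1199 against 127 CPM), Mctp1 (90.2 against 11.7), Edn1 (the vasoconstrictor endothelin 1, 632 against 88.5), Vwf (von Willebrand factor, 673 against 96.9), Sema3g (463 against 70.0), Cyp26b1 (a retinoic acid hydroxylase, 101 against 15.1), Hmcn1 (651 against 110), the Notch target Hey1 (171 against 28.6) and Tmem2 (944 against 165). Igha headed that order at 243 against 22.0 CPM, with most of its UMIs in the single cell named above. In the other direction Emp2 was at 54.3 CPM in gCap and 3948 in aCap cells, Igfbp7 at 137 and 3839, and Kdr, the main VEGF receptor, at 304 and 2155. Vwf did not separate gCap cells from larger vessels, where it reached 1709 CPM in arterial and 4450 in venous cells. Cxcl12 was also higher in arterial cells, at 1728 CPM, and Hey1 was near its gCap level there, at 157. Against venous cells the leading genes included Sema3g (463 against 20.2 CPM), the neurotrophin receptor Ntrk2 (121 against 4.64), the peptidase Dpp4 (146 against 8.32), the Notch ligand Dll4 (130 against 8.55), Hilpda (818 against 72.5) and Scn7a (820 against 76.0). Ccl21a and Mmrn1 also led that order, at 521 and 146 CPM, through the lymphatic-marked members. Dll4 was higher in arterial than in gCap cells, at 170 CPM. Against arterial cells the order was headed by Igha and by alveolar epithelial genes such as Sftpc (4471 against 664 CPM) and Ager, which are markers of other lineages.

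The senescence marker Cdkn2b separated the capillary cell types in detection. Its UMIs were present in 1.46% of gCap cells, 30.2% of aCap cells and 0.627% of B cells on average. After thinning each cell to 1000 UMIs the shares were 0.501%, 10.4% and 0.0602%. Cdkn2a UMIs were found in 0.119% of gCap cells. Cells with an Mki67 or Top2a UMI after thinning, the proliferation markers, made up at most 1.14% of members in any library.

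The share of gCap cells among all passing barcodes did not differ between genotypes beyond the spread of the libraries. It was 2.73% in the wild type library (95% exact binomial interval 2.31% to 3.19%, counting error only). The p21Het libraries had 3.35%, 4.80% and 1.89%, the p21mTert libraries 2.81%, 4.67%, 4.42%, 5.03% and 2.92%, and the p21mTertCD libraries 1.85% and 2.86%. The p21mTert libraries averaged 3.97% ± 1.03 (SD, n = 5), p21Het 3.35% ± 1.45 (n = 3) and p21mTertCD 2.35% ± 0.72 (n = 2), and the ranges of p21mTert and both other groups overlapped. The exact 2-sided permutation tests over libraries gave p = 0.536 for p21mTert against p21Het, 0.190 against p21mTertCD and 0.4 for p21mTertCD against p21Het, each 0.536 after adjustment over the 3. The smallest p these designs allow is 0.0179, 0.0476 and 0.1. In dissociated tissue, fewer cells of a type and fewer cells released cannot be told apart.

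The gCap share was also taken among endothelial barcodes alone. It was 36.0% in the wild type library. The p21Het libraries had 33.9%, 33.1% and 35.9%, the p21mTert libraries 35.4%, 33.9%, 31.4%, 31.6% and 29.3%, and the p21mTertCD libraries 31.9% and 30.8%. Over this denominator p21mTert lay 1.97 percentage points below p21Het (32.3% ± 2.38 against 34.3% ± 1.45, exact permutation p = 0.268), the opposite direction to the share of all barcodes. With every barcode thinned to 1000 UMIs before the rule, the share of endothelial barcodes was 27.3% ± 5.48 (SD, n = 3) in p21Het, from 23% to 33.4%, and 26.6% ± 2.73 (n = 5) in p21mTert, from 23.3% to 30.2%, so the groups overlapped.

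**Figure D2:**
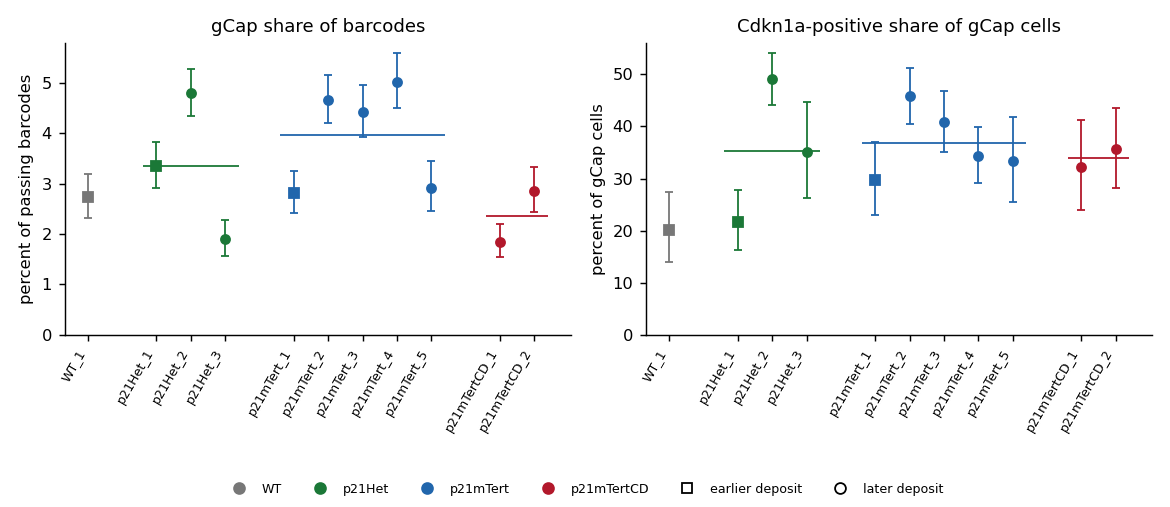
Left, gCap cells as a percent of passing barcodes, and right, Cdkn1a-positive cells as a percent of gCap cells after thinning, by library. Points are libraries (squares for the earlier and circles for the later deposit), error bars are 95% exact binomial intervals and horizontal lines group means, and in both panels the genotypes overlap, with p21Het spanning 1.89% to 4.80% and 21.6% to 49.1%.

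Tert, the gene for which the mTert groups are named, was barely counted in gCap cells of the controls. The wild type members held 0 Tert UMIs in 455696 (95% Poisson interval 0 to 8.10 CPM). The p21Het members held 2, or 0.781 CPM (0.0946 to 2.82). The p21mTert members held 34, or 7.27 CPM (5.03 to 10.2), and the p21mTertCD members 9, or 8.38 CPM (3.83 to 15.9). The p21Het libraries had 1.64, 0.667 and 0 CPM of Tert, the p21mTert libraries 4.14, 11.5, 7.21, 6.16 and 1.86, and the p21mTertCD libraries 4.42 and 11.3. All values of the mTert groups lay above those of p21Het, but the nearest pair, p21mTert_5 and p21Het_1, had 1 UMI each, so that order rests on depth. These intervals cover counting error only, and Tert was too sparse to enter the test across genes.

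Tert was counted in gCap cells with and without a Cdkn1a UMI. In p21mTert, 879 members with a Cdkn1a UMI held 26 Tert UMIs (7.21 CPM, 95% Poisson interval 4.71 to 10.6) and 379 without held 8 (7.45 CPM, 3.22 to 14.7). In p21mTertCD the counts were 8 (11.4 CPM, 4.94 to 22.5) and 1 (2.67 CPM, 0.0676 to 14.9). Both pairs of intervals overlapped. Single libraries gave most of these counts: p21mTert_2 held 15 of the 26, and p21mTertCD_2 held 7 of the 8, which leaves 1 UMI in 289479 in positive cells of p21mTertCD_1. Depth differed between these cells, as a cell with more UMIs is more often found positive for Cdkn1a.

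Cdkn1a itself was widely detected in gCap cells of every group. Thinned to 1000 UMIs per cell, 20.1% of members were positive in the wild type library. The p21Het libraries had 21.6%, 49.1% and 35.1%, the p21mTert libraries 29.7%, 45.9%, 40.9%, 34.3% and 33.3%, and the p21mTertCD libraries 32.2% and 35.6%. B cells gave 0.530% to 2.67% by the same measure. The other endothelial cells carried Cdkn1a too, so it did not set gCap cells apart from them. Without thinning, Cdkn1a averaged 494 CPM in gCap, 779 in aCap, 472 in arterial and 442 in venous cells. The gCap level was above the aCap level in 1 of 11 libraries, above the arterial level in 6 and above the venous level in 10. Without thinning the gCap share was 38.0% to 82.4%. The p21Het libraries spanned nearly the whole range, and no contrast of genotypes passed the exact permutation test (p = 0.875 for p21mTert against p21Het, 0.667 against p21mTertCD and 0.8 for p21mTertCD against p21Het, all 0.875 adjusted). The 3 libraries deposited earlier had 20.1% to 29.7% positive members and 250 to 466 CPM of Cdkn1a, and the 8 deposited later 32.2% to 49.1% and 416 to 723 CPM. Within the earlier deposit Cdkn1a was at 250 CPM in p21Het_1 and 266 in the wild type library, 1 library each, while p21Het_2 and p21Het_3, at 720 and 723, belong to the later deposit. The labels do not say which part of the p21 transcript the altered alleles lack, so 3′ counts do not check the allele. On the summed counts, edgeR gave a log2 difference of -0.14 (SE 0.31, adjusted p = 1) between p21mTert and p21Het.

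Of the 3 contrasts of genotypes, the one between p21mTert and p21mTertCD had genes called by edgeR in gCap cells. Of 8237 genes tested with edgeR's quasi-likelihood test, 8 (0.0971%) differed at an adjusted p under 0.05, and all 8 were lower in p21mTert. An unadjusted p under 0.05 was reached by 538 genes (6.53%). The 7 described here are Parp14, Igtp, Irgm2, Gbp7, Ifi44, Zbp1 and Zfp697. DESeq2 called 22, all lower, including these 8. In data simulated for this contrast the edgeR fit recovered 76 of 100 genes changed 2-fold and 99 of 100 changed 4-fold, with 7 false calls. The changed genes all had a mean of 50 CPM or more, so recovery of lower genes was not tested. They were also changed together, which makes the adjusted threshold easier to pass than with few changed genes.

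Igtp and Irgm2 encode immunity-related GTPases, a family that takes part in the defence against pathogens in vacuoles. Igtp was at 206 and 90.1 CPM in p21mTertCD and at 43.5, 23.7, 49.5, 39.3 and 37.2 in p21mTert. It was at 21.4, 40.0 and 33.1 CPM in p21Het and 39.5 in the wild type library. Irgm2 was at 175 and 91.7 CPM in p21mTertCD, against 26.9 to 50.5 in p21mTert and 41.7 to 47.7 in the other 4 libraries. The log2 differences between p21mTert and p21mTertCD were -2.02 (SE 0.33) and -1.66 (SE 0.27), both with an adjusted p of 0.0297. In the GENCODE M21 annotation Igtp (chromosome 11, 58199556 to 58207591) and Irgm2 (58199618 to 58222782) overlap on the same strand, so how reads were split between them is uncertain.

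Gbp7 encodes a guanylate-binding protein of the same defence system. It was at 626 and 273 CPM in p21mTertCD, against 121 to 214 in p21mTert, 137 to 205 in p21Het and 154 in the wild type library (log2 difference -1.53, SE 0.25). Ifi44 was at 50.8 and 33.8 CPM against 8.28 to 14.9 in p21mTert (-1.99, SE 0.33). Zbp1, a sensor of Z-form nucleic acids, was at 75.2 and 33.8 CPM against 9.35 to 15.4 (-2.11, SE 0.37, adjusted p = 0.0486). Parp14, a mono-ADP-ribosyltransferase, was at 283 and 225 CPM against 109 to 156 (-1.07, SE 0.16). Zfp697 was at 81.8 and 90.1 CPM against 25.9 to 53.8 (-1.28, SE 0.20). In each of the 7 genes both p21mTertCD libraries lay above all 9 others, and p21mTertCD_1 was the higher of the pair in all of the 7 but Zfp697.

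**Figure D3:**
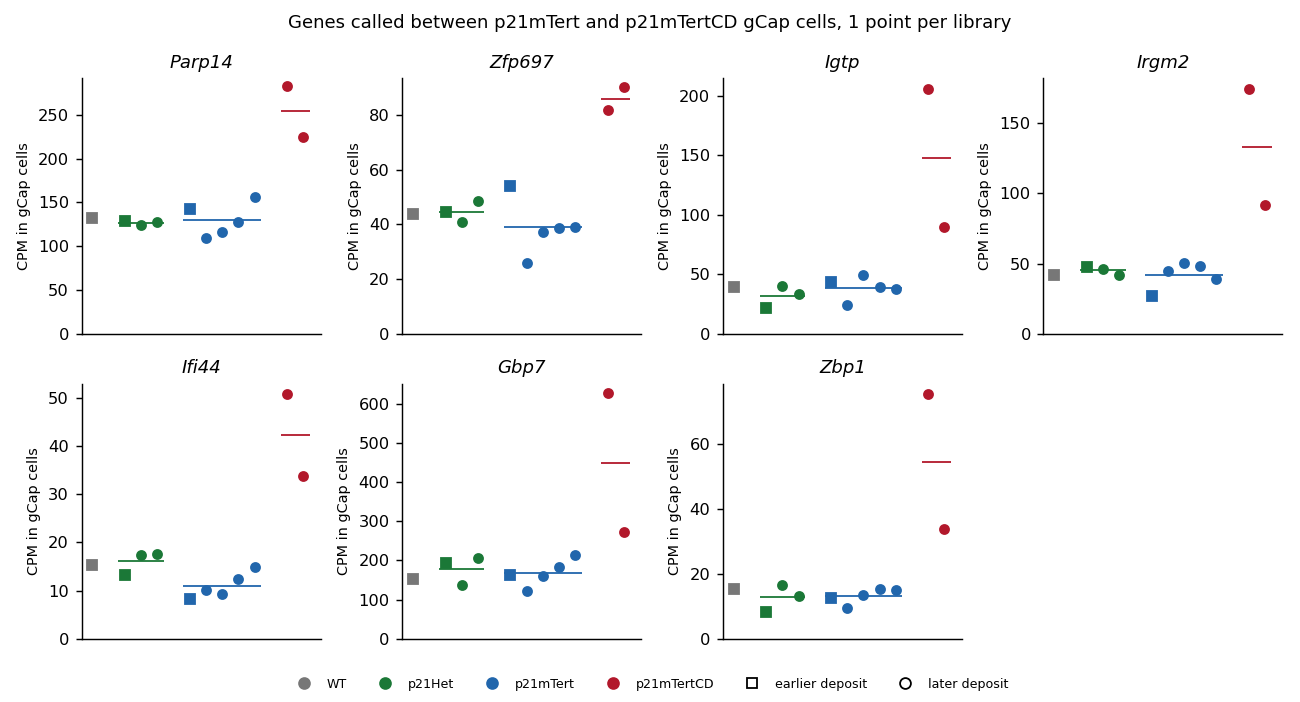
CPM of the 7 genes described in gCap cells by genotype, 1 panel per gene, each with its own linear axis from 0. Points are libraries (squares for the earlier and circles for the later deposit) and horizontal lines group means, and the 2 p21mTertCD points lie above all others in each panel.

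Promoter sequences are shown for the 3 of these genes whose windows held exact matches to the interferon motifs searched. RefSeq windows (GRCm38.p6, 250 bases before to 50 after the start site) were matched for 5 of the 8 genes, Gbp7, Ifi44, Igtp, Irgm2 and Zfp697. Gbp7, Igtp and Irgm2 each held both GAAA repeated after any 2 bases, the core of an interferon-stimulated response element, and TTCNNNGAA, the gamma-activated (GAS) element, on either strand. Of 32851 windows of this length, 3.44% held the first and 8.30% the second. The stretches below run 5′ to 3′ on the gene's strand over the 150 bases before the start site, with matches in capitals.
Igtp, chr11:58199406-58199555, plus strand: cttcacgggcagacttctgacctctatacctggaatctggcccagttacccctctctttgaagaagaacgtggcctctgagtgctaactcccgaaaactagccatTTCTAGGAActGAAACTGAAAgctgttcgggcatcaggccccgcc
Irgm2, chr11:58214827-58214976, plus strand: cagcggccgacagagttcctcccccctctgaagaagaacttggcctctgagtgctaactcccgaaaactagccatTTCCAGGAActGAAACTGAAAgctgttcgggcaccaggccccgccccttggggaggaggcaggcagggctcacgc
Gbp7, chr3:142530186-142530335, plus strand: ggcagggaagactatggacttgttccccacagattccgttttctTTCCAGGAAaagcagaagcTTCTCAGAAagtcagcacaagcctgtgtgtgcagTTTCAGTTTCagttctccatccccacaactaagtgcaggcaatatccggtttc
The longest run of bases identical between the Igtp and Irgm2 stretches is 38. The response element began 34 bases before the start site in Igtp, 64 in Irgm2 and 53 in Gbp7. A match describes the letters and not a bound site. Variants of the motifs were not searched, so the windows without a match, Ifi44 and Zfp697, may hold such variants.

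Most measured members of the interferon response list had lower values in p21mTert, although few were called. Of its 21 genes 19 were tested, 2 were called lower in p21mTert, Igtp among them, and 18 had a log2 difference below 0. The list's median was -1.18, against 0.0038 for all genes. In 14 members both p21mTertCD libraries lay above all 5 p21mTert libraries, which held for 3.54% of all genes tested. Ifi47 (197 and 109 CPM against 54.6 to 84.9, log2 difference -1.22, adjusted p = 0.052), Gbp4 (-1.65, adjusted p = 0.128) and Isg15 (-1.18, adjusted p = 0.227) missed the edgeR threshold and were called by DESeq2. Irf1 was the exception, with a log2 difference of 0.07. This list was drawn up with earlier results of these data known, so its direction is no independent evidence.

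Per cell, the list's UMIs were highest in the p21mTertCD libraries. After thinning, gCap cells held a mean of 5.93 and 4.33 interferon-list UMIs in the p21mTertCD libraries, against 2.95 to 3.83 in the other 9. Members with 5 or more such UMIs made up 61.2% and 38.8%, against 21.4% to 36.2%. Values of p21mTertCD_2 thus lay only just above the highest other library.

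**Figure D4:**
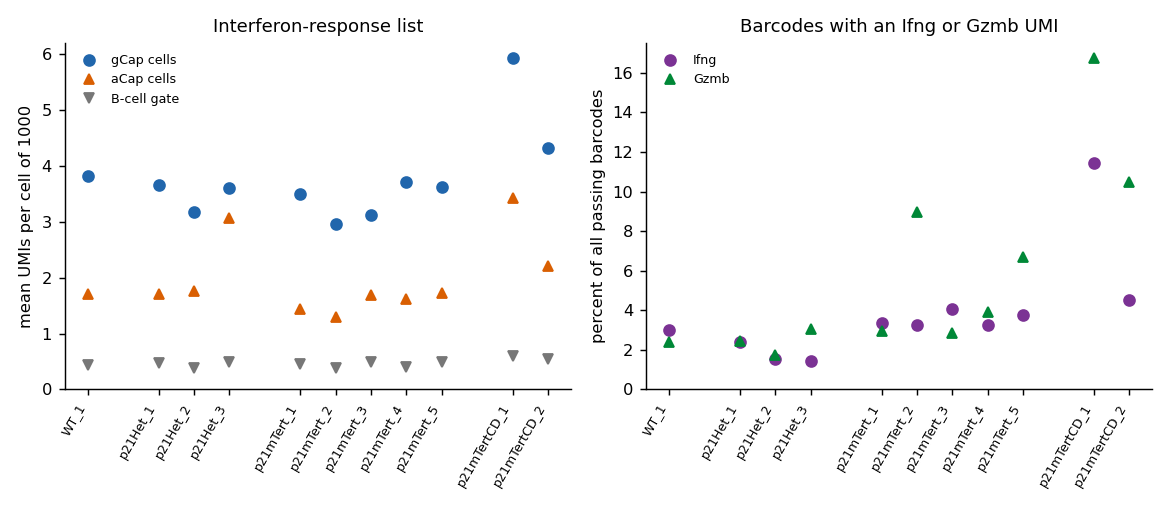
Left, mean interferon-list UMIs per cell after thinning to 1000 UMIs in gCap, aCap and B cells, and right, the percent of all passing barcodes with an Ifng or Gzmb UMI, by library. The gCap means of the p21mTertCD libraries are 5.93 and 4.33, those of the other libraries lie between 2.95 and 3.83, and p21mTertCD_1 is also the highest for Ifng (11.5%) and Gzmb (16.8%).

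In aCap, arterial and venous cells, Igtp, Irgm2 and Parp14 were higher in both p21mTertCD libraries than in every p21mTert library, while the other 4 genes overlapped in at least 1 of these cell types. The ratio of the p21mTertCD to the p21mTert mean for Igtp was 3.83 in gCap, 5.70 in aCap, 4.59 in arterial, 2.27 in venous and 1.13 in B cells. For Gbp7 it was 2.68, 2.35, 2.87, 1.78 and 1.26. The ratio for Zfp697 was 2.21 in gCap and 0.88 in aCap cells, and that for Zbp1 4.16 in gCap and 0.91 in venous cells. These ratios carry no test, and for Igtp and Gbp7 p21mTertCD_1 was the higher of the pair in each endothelial type. Igtp was at 231 and 70.4 CPM in aCap cells of the p21mTertCD libraries against 11.8 to 37.6 in p21mTert, and at 256 and 79.9 against 17.9 to 58.4 in arterial cells. In p21mTertCD_2, Gbp7 was inside the p21mTert range in aCap cells (126 CPM, range 45.0 to 134) and in venous cells (168 CPM, range 120 to 183). Zbp1 in arterial cells was at 66.1 CPM in p21mTertCD_1 and 4.99 in p21mTertCD_2, below the p21mTert range of 8.72 to 14.4. These types held few cells: p21mTertCD_1 and p21mTertCD_2 had 35 and 66 aCap, 61 and 84 arterial and 24 and 67 venous cells. Low values there rest on few UMIs. A test of the difference between the genotype effects in gCap and aCap cells called none of the 7 (adjusted p = 0.555 to 1), with Zfp697 the largest at a log2 difference of -1.34 (SE 0.31, adjusted p = 0.555). Against all other cells of the same libraries the 7 differences were all negative, -0.46 to -1.51, and none passed (adjusted p = 0.531 to 0.841). No gene passed that test among 17036 (0%), while 996 had an unadjusted p under 0.05. None of the genes can therefore be called particular to gCap cells.

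Markers of cytotoxic lymphocytes were counted in more barcodes of the p21mTertCD libraries. Ifng UMIs, the transcript of interferon gamma, were found in 11.5% and 4.50% of all passing barcodes in p21mTertCD, against 1.43% to 4.07% in the other libraries. Gzmb was found in 16.8% and 10.5% against 1.71% to 8.96%, and Cd8a in 14.2% and 15% against 4.63% to 10.6%. These shares were not thinned. In barcodes other than gCap cells, p21mTertCD_1 and p21mTertCD_2 had the highest median depth, 6412 and 6658 UMIs against 4219 to 5867. Per 1000000 UMIs of the passing barcodes, Cd8a was at 49.9 and 56.1 CPM in p21mTertCD against 15.3 to 36.4 in the other libraries. Ifng was at 26.7 CPM in p21mTertCD_1, but at 9.80 in p21mTertCD_2, inside the other libraries' range of 2.80 to 13.1. Gzmb was likewise at 102 CPM in p21mTertCD_1 and at 49.0 in p21mTertCD_2, inside the range of 10.5 to 64.0. For Ifng and Gzmb the higher level thus rested on p21mTertCD_1. Only 1 Ifng UMI was counted in gCap cells over all libraries. The part of these cells in the result was not tested. Within gCap cells, 9 lymphatic markers tested had a median log2 difference of -0.64 and 5 erythroid markers one of 2.61. None of them was called by edgeR, and DESeq2 called the lymphatic-list gene Fgl2. Without the lymphatic-marked members the same 8 genes were called, and without members of more than 5% other-lineage UMIs they were among 10. Stricter gates and the later deposit alone lost most or all calls, while the differences stayed about as large. With Gpihbp1 at 3 or more UMIs 0 genes were called, and the 8 had log2 differences of -2.10 to -1.09 (adjusted p = 0.0526 to 0.145), against -2.11 to -1.07 in all members. In cells with no Car4, Ednrb, Gja5, Gja4 or Bmx UMI 1 was called, Igtp, and the 7 of the 8 that were tested had -2.52 to -1.13 (adjusted p = 0.0242 to 0.127). In the later deposit alone 0 were called, at -2.07 to -1.06 (adjusted p = 0.0644 to 0.0824).

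The count of called genes rested on few libraries. Without p21mTertCD_1, which had the fewest B cells and the most Ifng, 0 genes were called, and without p21mTertCD_2 36 were, the lone remaining library being assumed to vary like the others. The count fell to 0 without p21mTert_2, p21mTert_3, p21mTert_4, p21mTert_5 or p21Het_3, to 1 without p21mTert_1, and was 13 without p21Het_1. Without p21mTertCD_1 the 8 log2 differences shrank to -1.63 to -0.75, against -2.11 to -1.07 with all libraries. All 8 stayed negative in each of these fits. Both p21mTertCD libraries lay above all others in the genes described, so leaving out 1 library could hardly turn the sign.

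MHC genes lay higher in p21mTertCD as well, by smaller amounts. All 19 genes of the class I and II list were tested and none was called by edgeR. All 19 had a log2 difference below 0 between p21mTert and p21mTertCD, with a median of -0.60, and 17 had an unadjusted p under 0.05 (6.53% of all genes). In 13 the libraries did not overlap (3.54% of all genes). DESeq2 called H2-T23 (-0.80 in edgeR, adjusted p = 0.227). B2m, the invariant class I chain, was at 3828 and 2854 CPM in p21mTertCD and 1919 to 2752 in the other libraries. Cd74, the class II invariant chain, was at 3897 and 3150 CPM against 1130 to 2708. H2-K1 overlapped, at 3262 and 2886 CPM against 1955 to 3050. Cd74 UMIs were found in 87.6% of gCap, 40.1% of aCap, 75.8% of arterial and 77.8% of venous cells, and in 99.8% of B cells, which express it strongly.

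Between p21mTertCD and p21Het no gene passed edgeR's test (0 of 8237, 0%), with 395 at an unadjusted p under 0.05. The smallest adjusted p was 0.106, and Igtp (log2 difference 2.19, SE 0.38) and Parp14 (1.08, SE 0.18) were among the genes that reached it. DESeq2 called 17 genes, all higher in p21mTertCD, among them these genes, Irgm2, Gbp7, Zbp1, B2m, H2-K1 and Ccl5. The interferon list had a median of 1.30 and the MHC list of 0.67, with 14 of 19 and 16 of 19 members higher in both p21mTertCD libraries than in all p21Het ones (5.83% of all genes). Without p21mTertCD_2 edgeR called 29 genes. In data simulated for this contrast the fit recovered 54 of 100 genes changed 2-fold and 99 of 100 changed 4-fold, with 6 false calls. Here too the changed genes had a mean of 50 CPM or more and were changed together. This contrast shares its p21mTertCD libraries with the one above.

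Between p21mTert and p21Het, the contrast of the mTert allele with its heterozygous control, no gene in gCap cells passed edgeR's test. The count was 0 of 8237 (0%). An unadjusted p under 0.05 was reached by 238 genes, and 1 gene, Ifi208, was called by DESeq2. The same fit recovered 86 of 100 genes changed 2-fold and 100 of 100 changed 4-fold in data simulated for this contrast, with 10 false calls. These changed genes had a mean of 50 CPM or more, so the recovery does not extend to lower genes. They were changed together, and recovery of a gene that changes alone or with few others was not tested. The interferon list had a median of 0.083 here, with no member whose libraries did not overlap, and the MHC list 0.047.

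Ifi208, a member of the PYHIN family of interferon-inducible DNA-binding proteins, came nearest. It was at 59.2, 39.4 and 33.1 CPM in p21Het, and at 16.6, 0.719, 6.18, 2.31 and 9.30 in p21mTert. The wild type library had 48.3 CPM and p21mTertCD 19.9 and 37.0. All 5 p21mTert libraries thus lay below all 6 others (0.583% of all genes were lower than in p21Het without overlap), with a log2 difference from p21Het of -3.03 (SE 0.46, adjusted p = 0.0857). The difference ranged from -3.49 to -2.65 over 22 alternatives and passed the threshold in 6 of them. Ifi208 lies on chromosome 1 (GRCm38, 173673675 to 173698395, plus strand). Of the 14 PYHIN genes 3 were tested, and Ifi203 (-0.06) and Ifi213 (-0.26) did not share this difference.

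The other genes of smallest p in that contrast did not pass. Igha (-5.29) and Jchain (-4.10) rested on the 1 member of p21Het_1. Cyp1a1 (-4.36, SE 1.03, adjusted p = 0.744), the xenobiotic-induced cytochrome, was at 112 and 201 CPM in p21Het_2 and p21Het_3 and 0 in p21Het_1. Map3k7, the TAK1 kinase, was lower in p21mTert (21.6 to 39.0 CPM against 42.0 to 60.8, log2 difference -0.83, SE 0.19). On the higher side stood Gm47283 (1.47, SE 0.34), the activin receptor Acvr1 (14.4 to 33.5 CPM against 8.01 to 11, 1.37, SE 0.33), Vegfc (49.7 to 70.6 against 26.5 to 55.9, 0.81, SE 0.22), Spryd7 (0.88, SE 0.22) and Wdfy1 (0.99, SE 0.26). The adjusted p-values of these genes were 0.744 and above.

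A test for genotype effects that differ between gCap and aCap cells called 2 of 8921 genes for p21mTert against p21Het (0.0224%), Tagln and Acta2, contractile genes of smooth muscle. The differences were -8.16 and -7.75 on the log2 scale. They came from aCap cells: gCap cells held 1 to 22 Tagln and 0 to 16 Acta2 UMIs per library, while aCap sums reached 519 and 824 UMIs in p21mTert_2. Neither was called by DESeq2, which called Tpm2 instead, or by edgeR without p21Het_2 (adjusted p = 0.195 to 0.664), where Igha, Igkc and Jchain were called. Only Tagln was called without doublets. The edgeR count was 8 without p21Het_1 and 10 in the later deposit alone, both genes included. Against all other cells 0 of 17036 passed (0%), with 648 at an unadjusted p under 0.05. For p21mTert against p21mTertCD 1 of 8921 passed (0.0112%), the airway secretoglobin Scgb3a2, which was at 734 CPM in gCap cells of p21mTertCD_2 and 24.3 to 124 in the other libraries.

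No gene in the lists of capillary function was called by edgeR in any contrast of genotypes. Each list is given with its counts in p21mTert against p21Het unless said otherwise.

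In fatty acid uptake and lipolysis 9 of 16 genes were tested, with a median log2 difference of -0.02 and 0 at an unadjusted p under 0.05. These counts include Gpihbp1. Cd36, the fatty acid translocase, was at 1920 to 2400 CPM in p21Het, 1946 to 2402 in p21mTert and 1642 and 2431 in p21mTertCD (0.03, SE 0.13). Lpl, lipoprotein lipase, varied more, at 375 to 664, 280 to 706 and 946 and 586 CPM (-0.15, SE 0.32). Gpihbp1, which the rule used, was at 1425 to 1846 CPM in p21Het and 1541 to 2027 in p21mTert, given as a description only. The ranges of Cd36 and Lpl overlapped between every pair of groups.

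In VEGF, apelin and angiopoietin signalling 13 of 16 genes were tested, with a median of 0.11 and 1 at an unadjusted p under 0.05, Vegfc above. Flt1, a VEGF receptor that also acts as a decoy, was at 819 to 1228 CPM in p21Het and 831 to 1145 in p21mTert (-0.08, SE 0.14). Nrp1, a co-receptor, was at 409 to 663 and 474 to 727 CPM (0.15, SE 0.15), and Tek, the angiopoietin receptor, at 453 to 697 and 507 to 650 (-0.04, SE 0.13). Ptprb, the phosphatase that restrains Tek, was at 2469 to 3305 and 2589 to 3329 CPM (-0.05, SE 0.12). The ranges overlapped in all 4.

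In BMP and ALK1 signalling, the pathway affected in hereditary pulmonary hypertension, 12 of 16 genes were tested with a median of 0.05. Bmpr2 differed by -0.02 (SE 0.12), its partner Acvrl1 by 0.09 (SE 0.14), the co-receptor Eng by 0.09 (SE 0.16) and the target Id1 by 0.27 (SE 0.15). In Notch signalling 10 of 12 were tested with a median of -0.05. Notch4, the endothelial Notch receptor, was at 150 to 253 CPM in p21mTert and 127 to 146 in p21Het, without overlap (0.43, SE 0.15, adjusted p = 1; 1.3% of all genes did not overlap in this direction). It was at 135 and 114 CPM in p21mTertCD, also below p21mTert without overlap, as were 8.45% of all genes (0.46, SE 0.18, adjusted p = 0.713). Notch1 (-0.08, SE 0.12), Hes1 (0.14, SE 0.22) and Hey1 (-0.14, SE 0.22) overlapped.

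In flow-responsive factors and vascular tone 13 of 14 genes were tested with a median of 0.13. Klf2, induced by laminar flow, was at 2670, 1811 and 1629 CPM in p21Het and 1699 to 3081 in p21mTert (0.15, SE 0.19). Klf4 differed by 0.16 (SE 0.15), thrombomodulin (Thbd) by -0.03 (SE 0.15) and angiotensin-converting enzyme (Ace) by -0.05 (SE 0.16).

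In junction and barrier genes all 16 were tested with a median of 0.06, a count that includes Cldn5 and Cdh5, which the rule used. Cldn5 was at 1998 and 3064 CPM in p21mTertCD and 3442 to 4653 in p21mTert, given as a description only. Pecam1 (0.01, SE 0.12) and Cavin2 (0.13, SE 0.17) overlapped between p21mTert and p21Het. In leukocyte adhesion and scavenging 9 of 13 were tested with a median of -0.12, and Icam2 (0.12, SE 0.12), Podxl (-0.20, SE 0.14), Lyve1 (-0.50, SE 0.28) and Icam1 (-0.21, SE 0.28) led by level.

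Transcription factors that define the lung endothelium, 17 of 18 tested, had a median of 0.04. Epas1, the hypoxia-inducible factor 2 alpha gene, differed by 0.00 (SE 0.14), Foxf1 by 0.04 (SE 0.19), Gata2 by 0.05 (SE 0.15) and Ets2 by -0.04 (SE 0.14). Basement membrane and matrix genes, 15 of 18 tested, had a median of -0.07 against p21Het and -0.37 against p21mTertCD, where 3 did not overlap on the lower side (3.54% of all genes), and DESeq2 called Sparcl1 (-1.20 in edgeR, SE 0.25, adjusted p = 0.127). Col4a1 (0.01, SE 0.23), Col4a2 (-0.03, SE 0.23), Timp3 (0.14, SE 0.26) and Sparc (-0.07, SE 0.17) were its leading members.

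In the 3 contrasts of genotypes no gene in the lists on senescence and telomerase was called by edgeR, and DESeq2 called B2m in p21mTertCD against p21Het. Of 22 p53 targets 15 were tested with a median of -0.02, including Btg2 (0.27, SE 0.23), Fas (-0.20, SE 0.19) and Plk2 (0.41, SE 0.20). Of 20 senescence-associated genes 9 were tested with a median of 0.15, among them B2m (0.26, SE 0.17), Vim (-0.07, SE 0.13), Hmgb1 (0.04, SE 0.13) and Timp2 (0.15, SE 0.13). Of 20 proliferation genes 7 were tested with a median of 0.06, and of 14 telomerase and shelterin genes 9 with a median of 0.06 and 2 at an unadjusted p under 0.05, both lower. Log2 differences in the telomerase and shelterin list ran from -0.79 to 0.31. In this list 1 member was lower without overlap, as were 0.583% of all genes. The telomerase list was led in level by Nop10 (0.06, SE 0.17), Dkc1 (-0.05, SE 0.21), Gar1 (0.28, SE 0.21) and Nhp2 (-0.04, SE 0.21), all parts of the telomerase ribonucleoprotein. Immediate early genes (15 of 18 tested, median 0.32, none below 0), heat shock genes (13 of 14, 0.03), NRF2 targets (13 of 17, -0.16), glycolysis (13 of 16, -0.01) and mitochondrial transcripts (13 of 13, 0.04) had no member at an unadjusted p under 0.05 except Pkm (-0.36, SE 0.13).

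Within libraries, gCap cells with a Cdkn1a UMI differed from those without in immediate early genes and in Klf2, a flow-responsive factor. After thinning every cell to 1000 UMIs, UMIs were summed over positive and negative members of each of the 11 libraries and compared with the library as a block. Of 1803 genes tested 30 were called (1.66%), 17 higher (0.943%) and 13 lower (0.721%) in positive cells. Cells were split by Cdkn1a itself, which was left out.

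Of 12 immediate early genes tested, 9 rose and none fell, with a median log2 difference of 0.57 against 0.00022 for all genes. Fos, an AP-1 subunit, averaged 1242 CPM in positive and 702 in negative cells (0.74, SE 0.12, adjusted p = 6.76e-05, higher in 9 of 11 libraries). Atf3 averaged 451 and 235 CPM (0.81, SE 0.16), Egr1 802 and 474 (0.63, SE 0.12) and Ier3 933 and 561 (0.63, SE 0.10, higher in 11 of 11 libraries). Junb, Jund, Fosb, Ier2 and Zfp36, which encodes an mRNA-destabilising protein, also rose, by 0.35 to 0.60. Jun (0.26, adjusted p = 0.0565), Dusp1 and Ier5 did not pass. DESeq2 called 3 of the 12, Fos, Ier2 and Ier3, and in the later deposit alone edgeR called 4, Egr1, Fos, Ier3 and Junb.

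Among flow-responsive genes Klf2, Klf4 and Klf6 rose and 6 others tested were not called. Klf2 averaged 2647 CPM in positive and 1883 in negative cells (0.42, SE 0.07, adjusted p = 6.76e-05) and was higher in 11 of 11 libraries, Klf4 differed by 0.31 (SE 0.08) and Klf6 by 0.48 (SE 0.13). Of these 3, DESeq2 called Klf2 alone, and so did edgeR in the later deposit alone and without WT_1, p21mTert_1, p21mTert_3, p21mTert_4 or p21mTertCD_1, while Klf6 alone was lost without p21Het_3. Socs3, a feedback inhibitor of cytokine signalling, rose by 0.55, Gna13 by 0.61, the non-coding Gm26532 by 0.76 and Lyve1, the hyaluronan receptor, by 0.42 in 11 of 11 libraries. Of 4 p53 targets tested Btg2 rose (742 against 488 CPM, 0.52, SE 0.11), and Bax (0.22), Plk2 (0.18) and Fas (-0.04) did not pass. Among Socs3, Gna13, Gm26532, Lyve1 and Btg2, DESeq2 called Lyve1 alone.

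The genes that fell in positive cells were mostly of other lineages. All 4 globin genes tested fell, Hba-a1 by 1.08, Hbb-bs by 1.05, Hba-a2 by 1.03 and Hbb-bt by 0.61 on the log2 scale, and so did Sftpa1 (-0.75), Sftpc (-0.51) and Ccl21a (-1.07), whose UMIs lay in the 34 lymphatic-marked members. S100a11 (-0.68), Atp5o (-0.66), Gm26917 (-0.65), Gm42418 (-0.20), mt-Nd4 (-0.22) and mt-Co3 (-0.21) completed the list. Of all these lower genes DESeq2 called Ccl21a alone. Among 12 mitochondrial transcripts tested all 12 had a difference below 0. Of 12 gCap markers tested, which include genes the rule used, 0 were called, with Kit at 0.03 (SE 0.09). The interferon list, 7 tested, and the MHC list, 17 tested, had no member called, and medians of 0.10 and 0.0015.

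**Figure D5:**
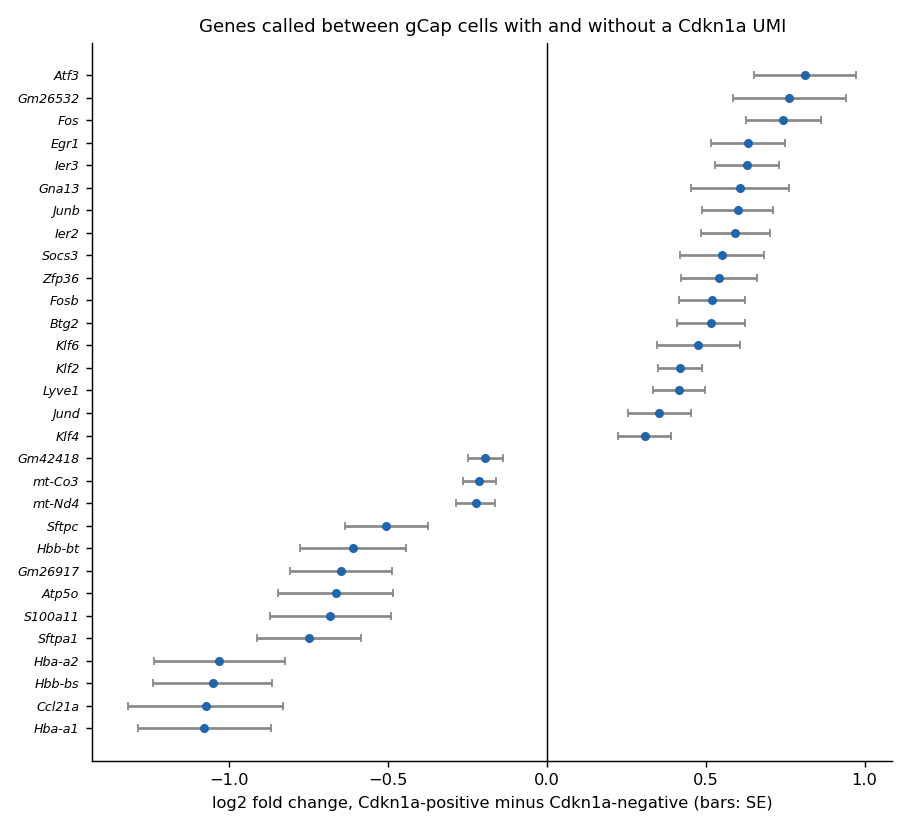
Log2 difference between gCap cells with and without a Cdkn1a UMI for the 30 called genes. Points are edgeR estimates and bars standard errors, with the 17 higher genes led by Atf3 at 0.81 and the 13 lower ones by Hba-a1 at -1.08.

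Fewer genes were called in this comparison by DESeq2 (6) and in the later deposit alone (13), and leaving out 1 library at a time gave 21 to 33.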

How the data were processed

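Single-cell 3′ RNA profiles of dissociated whole lung were used from 11 libraries. The authors deposited raw UMI counts per gene and barcode, made with Cell Ranger on mm10, per the submitters' processing notes. No deposited cell annotation was used. Counts of 31053 genes were read, barcodes were gated by UMIs as described in the report, and UMIs of gCap cells were summed per library. The 10 libraries of the replicated groups were fitted together with edgeR 4.0.16 (R 4.3.3; low counts filtered with filterByExpr, TMM scaling, quasi-likelihood test), with Benjamini-Hochberg adjustment over all genes tested. The standard error (SE) is the size of the log2 difference divided by the square root of F. DESeq2 1.42.0 was an alternative, and the wild type library entered no contrast of genotypes. Shares were compared by exact permutation over libraries, and their binomial intervals were made with scipy 1.17.1. Cells were thinned to 1000 UMIs where stated, since depth differed, and the other detection shares were not thinned.

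The comparison cells were aCap cells (3 or more Car4 and Ednrb UMIs, at most 1 of Gja5, Gja4 and Bmx, no Slc6a2), arterial cells (2 or more Gja5, Gja4 and Bmx, at most 1 of Car4 and Ednrb, no Slc6a2) and venous cells (1 or more Slc6a2, at most 1 of each other set). Each also held 1 or more Cldn5 and Cdh5 UMIs together and no Ptprc, which defined endothelial barcodes. B cells had 2 or more Cd79a UMIs and no Cldn5 or Cdh5. These limits fix some levels of the genes they use. Doublets were kept; Scrublet (scanpy 1.11.5) at a rate of 0.8% per 1000 barcodes gave an alternative without them. The members, gene lists and tests were chosen with earlier results of these data known. Named genes were the markers, up to 10 called genes per direction, the 5 of smallest p per direction where fewer than 10 were called, and the 4 highest members of each list. Others named for a DESeq2 call or a cell type were chosen after their values were seen. The edgeR fit was tested on simulated data, with the changed genes drawn from those with a mean of 50 CPM or more and all changed together. Libraries are named by genotype and replicate number. Of the called genes, 1 is not reported here.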

Additional observations from a re-analysis of the deposited data

Results flagged for a closer look

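Among the 5 p21mTert libraries, 115 sets of values were examined for a library far from the rest, and 14 had one. Chance gives about 1 in 20, and sets from the same libraries are not independent. In p21mTert_1, of the earlier deposit, Fosb was at 1495 CPM (461 to 731 in the other 4), Gm26532 at 516, Icam1 at 369, Notch4 at 253, Podxl at 897 and mt-Nd4 at 4464, each the highest, and Acta2 at 0, the lowest. In p21mTert_2 Scgb1a1 was at 8119 CPM and Scgb3a2 at 124. In p21mTert_3 Foxf1 was at 535 CPM, below 861 to 986 in the others. In p21mTert_4 Ager was at 377 CPM and Tagln at 10.8. Tagln and Acta2 rested on few UMIs: Tagln had 14 in p21mTert_4 and 1 to 6 in the other p21mTert libraries. Acta2 had 0 in p21mTert_1 and 2 to 6 in the others. In p21mTert_5 Hba-a1 was at 4810 CPM and Hbb-bt at 1458.

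The genotype effect differed between gCap and aCap cells, by the test of that difference, for Tagln (-8.16) and Acta2 (-7.75) in p21mTert against p21Het and for Scgb3a2 (-3.90) in p21mTert against p21mTertCD, on the log2 scale.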

How the results depend on the processing

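The share of gCap cells in p21mTert minus p21Het (0.63 points) was -1.97 among endothelial barcodes and ranged from -0.10 to 1.35 with 1 library left out. The Cdkn1a-positive share in the same contrast (1.51 points) was -1.17 with 2 or more UMIs and -3.55 in the later deposit alone, and ranged from -5.33 to 8.43 with 1 library left out. For p21mTertCD minus p21Het (-1.38) that range was -8.21 to 5.54.

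The count of genes called in p21mTert against p21mTertCD (8) was 22 with DESeq2, 160 without a filter on low counts, 0 in the later deposit alone, 0 with Gpihbp1 at 3 or more UMIs and 1 in cells with no Car4, Ednrb, Gja5, Gja4 or Bmx UMI. It ranged from 0 to 36 with 1 library left out. In p21mTert against p21Het (0) the count was 1 with DESeq2, 51 without the filter, 2 with a term for the deposit, 1 without doublets and 1 without members of over 5% other-lineage UMIs, and 0 to 1 with 1 library left out. In p21mTertCD against p21Het (0) it was 17 with DESeq2, 101 without the filter and 0 to 29. For the Cdkn1a split (30) it was 6 with DESeq2, 49 without the filter, 46 without thinning, 13 in the later deposit and 21 to 33. For gCap against aCap effects of p21mTert and p21Het (2) it was 1 with DESeq2, 103 without the filter, 10 in the later deposit, 1 without doublets and 2 to 8, with neither Tagln nor Acta2 among the 3 called without p21Het_2. Against all other cells (0) it was 4 without the filter, 6 in the later deposit, 2 without doublets and 0 to 4. Atp5o in the Cdkn1a split reversed to 0.013 with thinning to 2000 UMIs. The cause of these changes was not tested. Leaving out the other-lineage members was chosen after seeing the data.

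With a replicate block 0 genes were called in each of the 3 contrasts of genotypes. Same-numbered libraries correlated at -0.19 to 0.28 over 7 pairs, 2 of them above 0.1, and other pairs at -0.24 to 0.26. Deviations of the 2 p21mTertCD libraries from their mean are mirror images, so pairs with them say little. Between p21Het and p21mTert the same-numbered pairs correlated at 0.28, 0.17 and -0.09. These correlations cannot settle whether the numbers pair libraries, and the main fits used no pairing. Of the other alternatives for single genes, 588 kept direction and call and 231 lost the call. With 111 to 409 cells per library, genes near 10 CPM rested on few UMIs.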

Other observations

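Cyp1a1, a cytochrome induced through the aryl hydrocarbon receptor, was high in the same 3 libraries in every endothelial gate, across genotypes. In gCap cells it was at 112 CPM in p21Het_2, 201 in p21Het_3 and 219 in p21mTertCD_2, and between 0 and 10.1 in the other 8. In aCap cells these 3 libraries had 39.7, 374 and 111 CPM, and in arterial cells 90.6, 333 and 147. Venous cells had the highest levels, 277, 551 and 609 CPM in these libraries and 52.4 to 170 in the others. B cells had at most 0.213 CPM. The 3 libraries belong to the later deposit, and both genotypes also hold a library without this level. These genes and libraries were chosen after their values were seen, and no test was made.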
